A study of Mus musculus with 36 samples.

Results

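The genes described here are the transcription factor NRF2 (gene Nfe2l2), its inhibitor KEAP1 (Keap1) and 8 genes known as NRF2 targets: Nqo1, Hmox1, Txnrd1, Srxn1, Osgin1, Me1, G6pdx and Prdx1. They were chosen by symbol, and each of the 10 symbols matched 1 entry among the 36930 entries of the deposited count table. All 10 passed the filter on low counts. The study measured RNA in mouse embryonic fibroblasts (MEFs, fibroblasts grown from embryos) of 2 genotypes, WT and PERK -/- (called Perk-null here), with 6 treatments in each and 3 libraries in each of the 12 groups. PERK is the kinase, encoded by Eif2ak3, that senses stress of the endoplasmic reticulum (ER) and starts the integrated stress response (ISR). The WT groups and the Perk-null groups were treated with thapsigargin (Tg), with BtdCPU or halofuginone, with either of these together with Tg, or with DMSO as the vehicle. Tg is an inhibitor of the SERCA calcium pumps and so an ER stressor, BtdCPU is used to activate the ISR kinase HRI, and halofuginone inhibits prolyl-tRNA charging and activates the ISR kinase GCN2. The labels give no dose, time, embryo age, sex or passage, and name no separate line or clone for a genotype, so genotype and the line that carries it cannot be told apart. They do not say whether replicates were separate cultures, so p-values measure only the spread between these libraries.

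NRF2 is a transcription factor that protects cells from oxidants and electrophiles. KEAP1 is the adaptor that brings NRF2 protein to a CUL3 ubiquitin ligase for breakdown, and oxidants that modify KEAP1 let NRF2 accumulate, pair with small MAF proteins and bind antioxidant response elements near its target genes. This control acts largely on NRF2 protein, which RNA counts do not show. PERK has been described as a kinase of NRF2, and some NRF2 targets, Hmox1 among them, are also known to respond to ATF4, the ISR transcription factor, and to the repressor BACH1.

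RefSeq promoter windows, which run from 250 bases before to 50 after an annotated start (build GRCm38.p6), were at hand for 9 of the 10 genes, all but Hmox1, in 12 windows. The antioxidant response element core was searched on both strands as TGACNNNGC, with the variant TGAGNNNGC, and 7 of the 9 genes held a match, 10 matches in all (3 in Srxn1, 2 in Prdx1 and 1 in each of the other 5). Counted by window, 7 of the 12 held the core or the variant. Of all 32851 windows, 12.4% held the core, 17.6% the variant and 27.8% at least 1 of them. The windows of Nqo1 and Keap1 held neither, which says only that these letters are absent from these windows. The stretches below show 1 match per gene in capitals with its flanks. The matches of the 7 genes share the searched pattern but not all of their letters, and the element lies on either strand. For Srxn1 and Prdx1 the match that holds the AP-1 core TGANTCA is shown.
Srxn1: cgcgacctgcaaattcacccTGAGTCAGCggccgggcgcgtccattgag
Prdx1: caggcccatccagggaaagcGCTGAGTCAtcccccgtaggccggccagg
Osgin1: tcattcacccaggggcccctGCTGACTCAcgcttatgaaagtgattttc
Me1: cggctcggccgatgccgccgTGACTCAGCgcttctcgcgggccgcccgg
Txnrd1: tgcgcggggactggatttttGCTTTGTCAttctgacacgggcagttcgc
G6pdx: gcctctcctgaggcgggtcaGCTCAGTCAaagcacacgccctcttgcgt
Nfe2l2: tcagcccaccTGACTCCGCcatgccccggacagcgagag
The Srxn1 stretch is chr2:152105459-152105507 on the plus strand, and its match lies 45 to 37 bases before the start. The Prdx1 stretch is chr4:116685446-116685494 (plus), the Osgin1 stretch chr8:119437028-119437076 (plus) and the Me1 stretch chr9:86695892-86695940 (minus). The Txnrd1 stretch is chr10:82859094-82859142 (plus), the G6pdx stretch chrX:74428909-74428957 (minus) and the Nfe2l2 stretch chr2:75704875-75704913 (minus). Of the 10 matches, 4 hold TGANTCA, 1 each in Srxn1, Prdx1, Osgin1 and Me1, a combination present in 0.822% of all windows, while TGANTCA alone is present in 7.81%. The C/EBP-ATF response element core TGATGNAA, to which ATF4 with a C/EBP partner is known to bind, matched in none of the 12 windows and in 3.97% of all windows. The 4 genes with a match that holds TGANTCA did not move together, and these matches are a description, not binding sites.

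Library totals ran from 32454257 to 37178107 estimated counts, so every library was of like depth, and levels are given as CPM, an entry's estimated counts scaled to a common library size. CPM does not account for gene length, so levels are compared only within a gene. Eif2ak3 itself averaged 31.1 ± 1.1 CPM (SD, n = 3) in WT and 9.95 ± 0.76 CPM in Perk-null cells in DMSO, a log2 difference of -1.65 (edgeR adjusted p = 8.69e-09), and a count over the whole gene does not say which exons are absent. Of 10 fibroblast markers, 9 lay above 1 CPM in every library, with a summed level of 13400 to 39000 CPM. Summed markers of epithelial cells (0.114 to 23.6 CPM), endothelial cells (0.248 to 5.33 CPM, Emcn at 0 throughout), macrophages (3.83 to 23 CPM) and erythroid cells (0.0281 to 1.15 CPM) stayed low beside these. The epithelial sum differed between groups, from 0.243 CPM in WT cells in DMSO to 19.4 with halofuginone and 9.23 with halofuginone and Tg, almost all of it Krt8 and Krt18, while Epcam stayed at or below 0.169 CPM in every library; in Perk-null cells it went from 1.63 to 3.73 with halofuginone. Single fibroblast markers moved as well: in WT cells halofuginone took Col3a1 from 1699 to 390 and Pdgfrb from 136 to 36.3 CPM, and Pdgfra in DMSO averaged 332 CPM in WT and 56 CPM in Perk-null cells. Other fibroblast markers rose, since the summed level in WT cells went from 26004 CPM in DMSO to 32207 with halofuginone. In Perk-null cells the fibroblast sum went from 15984 to 15676 CPM. The part of these marker changes in the halofuginone and genotype differences reported here was not tested. In such bulk libraries, fewer cells that express a gene and less of its RNA per cell cannot be told apart.

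Comparisons between groups were tested gene by gene with edgeR's quasi-likelihood test over 16065 genes, and a gene was called where the Benjamini-Hochberg adjusted p was below 0.05. Tg in WT cells raised Hmox1, Osgin1, Nfe2l2 and Txnrd1 and lowered Prdx1, G6pdx and Nqo1, so 7 of 10 genes were called where 47.6% of all genes were. Tg in Perk-null cells gave another picture: Hmox1, Nqo1, Me1 and Keap1 rose and Txnrd1 fell, 5 of 10 against 27.9% of all genes. BtdCPU alone raised only Hmox1 of the 10 in either genotype. In WT cells Keap1 and Prdx1 fell with it (3 of 10 called against 22.2%), and in Perk-null cells Keap1 fell (2 of 10 against 3.59%). Halofuginone alone raised Nfe2l2 and Srxn1 and lowered G6pdx, Prdx1, Nqo1, Osgin1 and Keap1 in WT cells (7 of 10 against 68.2%). In Perk-null cells it raised Hmox1, Nfe2l2 and Txnrd1 and lowered G6pdx, Prdx1, Nqo1 and Keap1 (7 of 10 against 42.2%).

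Added to Tg in WT cells, BtdCPU changed 1 of 10 genes, Nqo1, which fell, against 2.32% of all genes. Added to Tg in Perk-null cells, BtdCPU raised Hmox1 and lowered Nqo1, Osgin1, Srxn1, Keap1 and G6pdx, 6 of 10 against 35.6%. Halofuginone added to Tg lowered Hmox1, G6pdx, Nqo1, Prdx1, Osgin1 and Txnrd1 and raised Nfe2l2 in WT cells (7 of 10 against 45.3%). In Perk-null cells the same addition lowered Nqo1, G6pdx, Osgin1, Prdx1, Keap1 and Me1 and raised Nfe2l2 and Txnrd1 (8 of 10 against 52.7%). Between genotypes in DMSO, Nqo1, Nfe2l2, Txnrd1 and Keap1 were lower in Perk-null cells and none was higher, 4 of 10 against 49.5%. The share called among the 10 was above that of all genes in the treatment comparisons, by little for halofuginone in WT cells, and below it between genotypes in DMSO. With 10 genes, chosen with earlier results of these data known, the counts say little about the 10 as a set.

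The response itself was then compared between genotypes as the Perk-null log2 fold change minus the WT one. For Tg the response differed in 8 of 10 genes against 38.1% of all genes, and it was Srxn1 and Osgin1 that did not pass. For BtdCPU alone no gene of the 10 was called (0 of 10 against 0.199%), also under DESeq2, and at an unadjusted p below 0.05 it was Hmox1 alone. For halofuginone alone the responses of G6pdx, Prdx1 and Nqo1 differed (3 of 10 against 35%). For BtdCPU added to Tg, Hmox1, Osgin1, Nqo1, Srxn1 and Keap1 differed (5 of 10 against 20.8%), and for halofuginone added to Tg, Hmox1, Txnrd1, Osgin1, Keap1, Nqo1, Me1 and Nfe2l2 did (7 of 10 against 32.7%). Comparisons that use the same DMSO or Tg libraries share them, so their values are given side by side only.

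**Figure D1:**
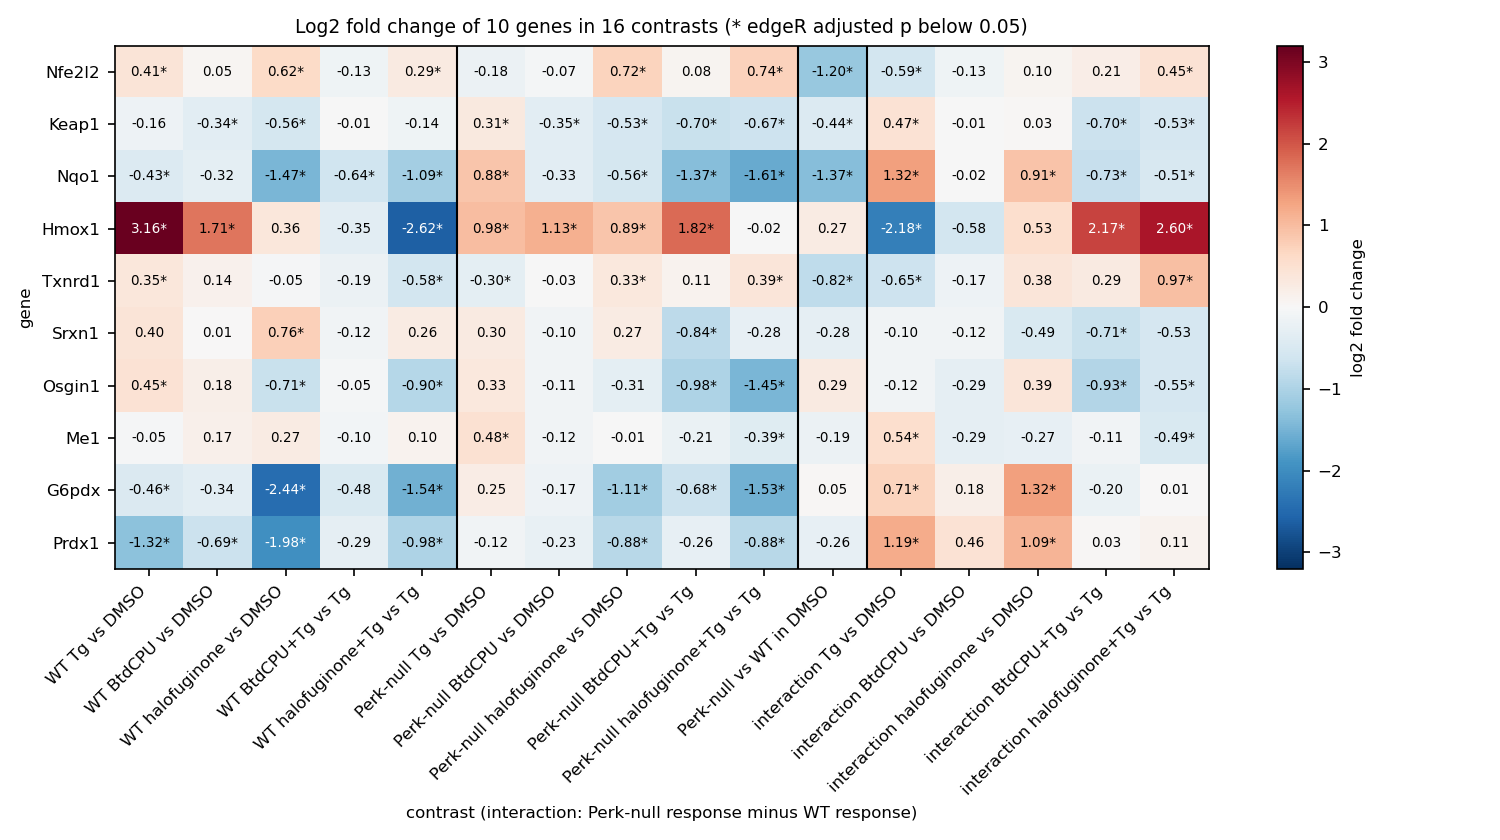
Log2 fold change of each of the 10 genes (vertical axis) in 16 contrasts (horizontal axis), with red for higher, blue for lower and an asterisk where the edgeR adjusted p was below 0.05. Hmox1 holds the strongest red and blue cells, at 3.16 for Tg and -2.62 for halofuginone added to Tg in WT cells.

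Nfe2l2 RNA was lower in Perk-null cells under all 6 treatments. In DMSO the WT libraries held 167, 161 and 178 CPM and the Perk-null libraries 77.6, 70.8 and 71.2 CPM. The Perk-null mean was 43.4% of the WT mean, a log2 difference of -1.20 (SE 0.089, edgeR adjusted p = 7.46e-13). Across all treatments the highest Perk-null library (124 CPM, with halofuginone) lay below the lowest WT library (154 CPM, with BtdCPU).

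With Tg, Nfe2l2 reached 221, 207 and 243 CPM in WT libraries, all above the DMSO libraries, and the rise was 0.41 on the log2 scale (SE 0.088, edgeR adjusted p = 0.000283). In Perk-null libraries Tg left it at 64.8, 61.9 and 66.6 CPM, below all 3 DMSO libraries, a log2 difference of -0.18 that did not pass (edgeR adjusted p = 0.125), but did under DESeq2 (-0.21, adjusted p = 0.0439) and in a fit of the 2 groups alone (-0.22, edgeR adjusted p = 0.0385). The difference between these responses was -0.59 (SE 0.13, edgeR adjusted p = 0.00031). The 2 treatments that held halofuginone had the highest Nfe2l2 means in both genotypes. Alone it gave 265, 278 and 234 CPM in WT and 124, 114 and 123 CPM in Perk-null libraries, rises of 0.62 and 0.72 that did not differ between genotypes past the threshold (difference 0.10, SE 0.12, edgeR adjusted p = 0.585). Added to Tg, halofuginone raised it by 0.74 in Perk-null cells (100, 109 and 113 CPM) and by 0.29 in WT cells (272, 284 and 263 CPM). The WT rise did not pass without WT Tg library 2 (0.22, edgeR adjusted p = 0.0781), without the filter on low counts (0.25, edgeR adjusted p = 0.127) or in a fit of the 2 groups alone (0.28, edgeR adjusted p = 0.073). BtdCPU moved Nfe2l2 past the threshold in neither genotype, at 171, 154 and 199 CPM in WT and 70.6, 69.8 and 68.4 CPM in Perk-null libraries.

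Keap1 moved over a narrow range, with group means from 37.6 to 73.7 CPM. In DMSO it held 67.9, 73.8 and 79.5 CPM in WT and 52.7, 54.8 and 55.4 CPM in Perk-null libraries, a log2 difference of -0.44 (SE 0.096, edgeR adjusted p = 0.000279). With Tg the genotypes overlapped, at 64.3, 69.4 and 67.8 CPM in Perk-null and 65.5, 65.3 and 67.3 CPM in WT libraries. The Perk-null rise of 0.31 (edgeR adjusted p = 0.0155) did not pass when Tg library 2 or 3 or DMSO library 1 or 3 was left out (edgeR adjusted p from 0.0626 to 0.13) or without the filter (0.14), while the difference between the 2 responses, 0.47 (SE 0.14, edgeR adjusted p = 0.00657), passed without each library in turn. Halofuginone lowered Keap1 in both genotypes, to 46.4, 54.8 and 48.9 CPM in WT (log2 change -0.56) and 37.9, 42 and 33 CPM in Perk-null libraries (-0.53). Over Tg, BtdCPU left WT Keap1 at 66.2, 63.5 and 67.5 CPM and lowered Perk-null Keap1 to 39.9, 41.4 and 42.2 CPM, log2 changes of -0.01 and -0.70 that differed by -0.70 (SE 0.14, edgeR adjusted p = 0.000308). Halofuginone over Tg gave -0.14 in WT and -0.67 for the Perk-null genotype, which differed by -0.53 (edgeR adjusted p = 0.00272) that did not pass without the filter on low counts (-0.45, edgeR adjusted p = 0.0593). The falls with BtdCPU alone, -0.34 in WT and -0.35 in Perk-null cells, were lost in part without single libraries: the WT call was lost without BtdCPU library 1 or 3 or DMSO library 3 (edgeR adjusted p from 0.0519 to 0.107), without the filter (0.053) and in a fit of the 2 groups alone (0.141), and the Perk-null call without any 1 of 5 of its 6 libraries (edgeR adjusted p from 0.0758 to 0.222; BtdCPU library 2 was the exception), without the filter (0.17) and with library sizes alone (0.0692). Keap1 overlaps an untested gene, Gm16754, on the opposite strand.

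Hmox1, the inducible enzyme that breaks down heme, had the widest range of the 10 genes, 8.92 times between its lowest and highest group means. In DMSO it stood at 43.4, 47.5 and 43.3 CPM in WT and at 51.5, 53.4 and 56.9 CPM in Perk-null libraries. Tg raised it to 429, 374 and 394 CPM in WT libraries, a log2 change of 3.16 (SE 0.18, edgeR adjusted p = 2.91e-15). In Perk-null libraries Tg gave 92.5, 110 and 116 CPM, still above all DMSO libraries but a change of 0.98 (SE 0.16, edgeR adjusted p = 2.56e-05). The difference between these responses was -2.18 (SE 0.23, edgeR adjusted p = 8.36e-09), and no Perk-null Tg library came near a WT one.

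BtdCPU alone raised Hmox1 in both genotypes, to 176, 103 and 159 CPM in WT (1.71, SE 0.17) and to 116, 115 and 123 CPM in Perk-null libraries (1.13, SE 0.17). The groups overlapped, and the difference of -0.58 did not pass (SE 0.23, edgeR adjusted p = 0.371), except without WT BtdCPU library 2, where it was -0.78 (edgeR adjusted p = 0.0268). BtdCPU added to Tg brought Perk-null Hmox1 to 347, 350 and 428 CPM, into the range of the WT libraries given the same 2 compounds (368, 338 and 234 CPM). Against Tg alone that was a rise of 1.82 in Perk-null cells (SE 0.17, edgeR adjusted p = 6.27e-10) and -0.35 in WT cells (edgeR adjusted p = 0.26), a difference of 2.17 (SE 0.23, edgeR adjusted p = 5.16e-08). Every Perk-null library with both compounds thus held more Hmox1 than any with Tg or BtdCPU alone.

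With halofuginone every Perk-null library held more Hmox1 than every WT library, as was already so in DMSO. Alone, halofuginone gave 57.2, 61.7 and 53.1 CPM in WT libraries (0.36, edgeR adjusted p = 0.0542) and 94.9, 108 and 95.4 CPM in Perk-null libraries (0.89, edgeR adjusted p = 5.24e-05). The WT value passed with DESeq2 size factors, without the filter on low counts, under DESeq2 and in a fit of the 2 groups alone (edgeR or DESeq2 adjusted p from 0.0171 to 0.0415). The difference between genotypes, 0.53 (SE 0.23, edgeR adjusted p = 0.0758), passed with library sizes alone (0.63, edgeR adjusted p = 0.0295), without the filter (0.60, 0.00336) and in a fit of the 4 groups alone (0.52, 0.0108). With the replicate number as a block the WT value and this difference both passed (edgeR adjusted p = 0.0391 and 0.0448). Added to Tg in WT cells, halofuginone left Hmox1 at 70.3, 78 and 46.1 CPM, far below the Tg libraries (-2.62, SE 0.17, edgeR adjusted p = 3.91e-13). The same addition left Perk-null Hmox1 at 95.5, 115 and 103 CPM, overlapping the Tg libraries (-0.02, edgeR adjusted p = 0.931). The 2 responses differed by 2.60 (SE 0.23, edgeR adjusted p = 1.1e-09). Ddit3, the ISR target CHOP, rose with BtdCPU, halofuginone and Tg in both genotypes. Its log2 changes for halofuginone were 3.45 (WT) and 2.54 (Perk-null), and its order across treatments was not that of Hmox1. Atf4 rose by 1.97 with Tg, 1.53 with BtdCPU and 1.21 with halofuginone in WT cells, the order of Hmox1 there. In Perk-null cells it rose by 0.31, 0.88 and 0.55, another order than that of Hmox1. The genotype differences for Tg, BtdCPU over Tg and halofuginone over Tg had the signs of those of Hmox1. They were -3.46, 3.55 and 2.94 for Ddit3 and -1.66, 1.10 and 0.74 for Atf4. For halofuginone alone the signs were opposite. Ddit3 differed by -0.91 (edgeR adjusted p = 0.0158) and Atf4 by -0.66 (edgeR adjusted p = 0.00104), where Hmox1 differed by 0.53 without passing. For BtdCPU alone all 3 genes had a negative difference, of -0.89 for Ddit3, -0.64 for Atf4 and -0.58 for Hmox1, and none passed. A link between these genes was not tested.

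Nqo1, a quinone reductase often read as a marker of NRF2 activity, was highest in WT cells in DMSO, at 109, 92.3 and 116 CPM. Perk-null cells in DMSO held 44.5, 41.9 and 36.5 CPM, 38.7% of the WT mean (log2 difference -1.37, SE 0.13, edgeR adjusted p = 2.24e-10). Tg lowered Nqo1 to 81.7, 65.6 and 87.9 CPM in WT libraries (-0.43, edgeR adjusted p = 0.00606) and raised it to 84.1, 66.5 and 76.1 CPM in Perk-null libraries (0.88, edgeR adjusted p = 3.28e-06). Under Tg the genotypes overlapped, and the responses differed by 1.32 (SE 0.18, edgeR adjusted p = 8.13e-07). Under the other 5 treatments every Perk-null library lay below every WT library.

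BtdCPU alone held Nqo1 at 82.5, 80.3 and 92.2 CPM in WT and 34.5, 31.9 and 31.2 CPM in Perk-null libraries, log2 values of -0.32 and -0.33 that did not pass (edgeR adjusted p = 0.0735 and 0.178). The WT value passed with library sizes alone, under DESeq2 and without WT DMSO library 2 (edgeR or DESeq2 adjusted p from 0.02 to 0.0471), and the Perk-null value in a fit of the 2 groups alone (edgeR adjusted p = 0.0466). With the replicate number as a block both passed (edgeR adjusted p = 0.0123 in WT and 0.0329 in Perk-null cells). Halofuginone alone lowered Nqo1, to 42.6, 33 and 38.8 CPM in WT (-1.47, SE 0.13) and to 31, 27 and 25.2 CPM in Perk-null libraries (-0.56, SE 0.13), a smaller fall (difference 0.91, SE 0.18, edgeR adjusted p = 0.000272). Over Tg, BtdCPU took Nqo1 to 50.9, 49.6 and 50.3 CPM in WT (-0.64, edgeR adjusted p = 0.00713) and to 32.1, 30.5 and 24.9 CPM in Perk-null libraries (-1.37, edgeR adjusted p = 1.42e-09). The WT fall did not pass without WT BtdCPU with Tg library 3 (edgeR adjusted p = 0.0511) or in a fit of the 2 groups alone (edgeR adjusted p = 0.0835), although the groups did not overlap and the change stayed between -0.64 and -0.65 there. The difference between genotypes was -0.73 (SE 0.18, edgeR adjusted p = 0.00389). Halofuginone over Tg gave 31.5, 39.2 and 39.4 CPM in WT (-1.09) and 24.6, 28.7 and 21.1 CPM in Perk-null libraries (-1.61). That difference, -0.51 (edgeR adjusted p = 0.0306), was lost without any 1 of 7 libraries, WT halofuginone with Tg 2 and 3, WT Tg 2, Perk-null halofuginone with Tg 1 and 3, and Perk-null Tg 1 and 3 (edgeR adjusted p from 0.0715 to 0.165). It was also lost without the filter on low counts (edgeR adjusted p = 0.0808) and in a fit of the 4 groups alone (edgeR adjusted p = 0.0893).

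**Figure D2:**
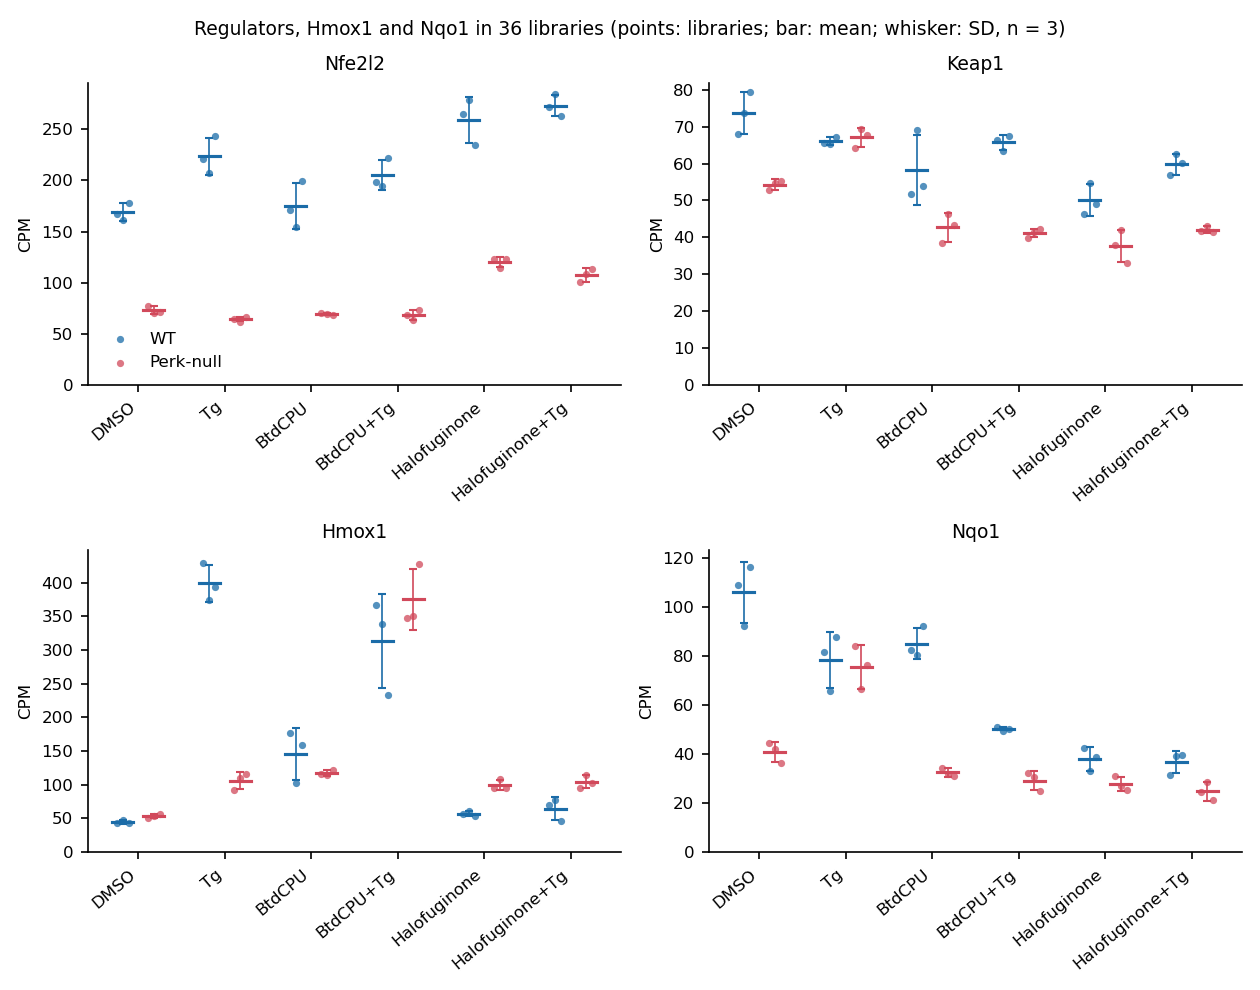
CPM (vertical axes, from 0) of Nfe2l2, Keap1, Hmox1 and Nqo1 by treatment in WT (blue) and Perk-null (red) cells; points are libraries, bars means and whiskers SD of 3. Nfe2l2 is lower in Perk-null cells throughout, Hmox1 in Perk-null cells reaches the WT range with BtdCPU and Tg together, and Nqo1 of the 2 genotypes meets only under Tg.

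Among the genes of the thioredoxin system, Txnrd1, the cytosolic thioredoxin reductase, was, like Nfe2l2, lower in Perk-null cells under every treatment. In DMSO it held 490, 378 and 539 CPM in WT and 269, 251 and 279 CPM in Perk-null libraries, 56.8% of the WT mean (log2 difference -0.82, SE 0.11, edgeR adjusted p = 3.25e-07). No Perk-null library under any treatment reached the lowest WT library. With Tg it stood at 618, 503 and 673 CPM in WT and 216, 197 and 236 CPM in Perk-null libraries, changes of 0.35 and -0.30. Both calls turned on single libraries: the WT rise did not pass without Tg library 3 (0.26, edgeR adjusted p = 0.0862), without DMSO library 2 (0.22, edgeR adjusted p = 0.121) or in a fit of the 2 groups alone (0.37, edgeR adjusted p = 0.0706), and the Perk-null fall did not without Tg library 1 or 2 or DMSO library 1 or 3 (edgeR adjusted p from 0.0768 to 0.0981). Their difference, -0.65 (SE 0.16, edgeR adjusted p = 0.00132), passed without each library in turn.

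Halofuginone moved Txnrd1 in opposite directions over Tg. It lowered it to 391, 389 and 419 CPM in WT (-0.58, edgeR adjusted p = 7.61e-05) and raised it to 280, 293 and 276 CPM in Perk-null libraries (0.39, edgeR adjusted p = 0.00394), a difference of 0.97 (SE 0.16, edgeR adjusted p = 1.41e-05). Alone, halofuginone gave 331, 339 and 331 CPM in Perk-null libraries, a rise of 0.33 (edgeR adjusted p = 0.0184) that did not pass without DMSO library 2 (0.28, edgeR adjusted p = 0.0793), and 469, 418 and 473 CPM in WT libraries (-0.05, edgeR adjusted p = 0.713). The difference, 0.37 (SE 0.16, edgeR adjusted p = 0.0634), did not pass. It passed with library sizes alone, without the filter and with the replicate block (edgeR adjusted p = 0.00604, 0.0362 and 0.00348). It also passed without WT halofuginone library 1 or 3, WT DMSO library 2, Perk-null halofuginone library 3 or Perk-null DMSO library 3 (edgeR adjusted p from 0.00936 to 0.0436).

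Srxn1, sulfiredoxin, which restores over-oxidised peroxiredoxins, was called in 2 of 11 comparisons of 2 groups. Library number 3 held its lowest value in 11 of 12 groups, so leaving it out of 1 group alone also unbalances the library number. Tg in WT cells gave a value of 0.40 that did not pass (edgeR adjusted p = 0.0572), although the groups did not overlap. It passed without the filter (0.37, edgeR adjusted p = 0.0298), in a fit of the 2 groups alone (0.42, 0.015) and with the replicate block (0.39, 0.0072). Halofuginone raised Srxn1 in WT cells from 29, 30.6 and 30.5 to 50, 56.2 and 46.6 CPM (0.76, SE 0.17, edgeR adjusted p = 0.000296), with no overlap. In Perk-null cells halofuginone gave 33.9, 33.6 and 21.6 CPM beside 27.6, 25 and 21.4 CPM in DMSO, a value of 0.27 (edgeR adjusted p = 0.225) that passed without Perk-null halofuginone library 3 (0.46, edgeR adjusted p = 0.0436). BtdCPU over Tg lowered it in Perk-null cells to 16.9, 17.4 and 16.6 CPM from 33.3, 31.1 and 26.6 CPM (-0.84, SE 0.18, edgeR adjusted p = 0.000364). In WT cells that comparison gave 46.8, 37.6 and 24.7 CPM against 44.4, 38.3 and 36.3 CPM, a value of -0.12. The difference of -0.71 (edgeR adjusted p = 0.0373) was lost without any 1 of 9 of the 12 libraries (edgeR adjusted p from 0.0749 to 0.218), the exceptions being WT BtdCPU with Tg 3, WT Tg 1 and Perk-null Tg 3, and in a fit of the 4 groups alone (edgeR adjusted p = 0.0628).

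Prdx1, a peroxiredoxin that reduces hydrogen peroxide, was never called higher and was called lower in 6 of 11 comparisons. WT libraries fell from 358, 398 and 250 CPM in DMSO to 149, 150 and 104 CPM with Tg (-1.32, SE 0.25, edgeR adjusted p = 5.03e-05), and Perk-null libraries held 274, 339 and 226 CPM in DMSO and 261, 280 and 228 CPM with Tg (-0.12, edgeR adjusted p = 0.768). The responses differed by 1.19 (SE 0.35, edgeR adjusted p = 0.00629). Halofuginone took it to 108, 88.3 and 60 CPM in WT (-1.98) and to 162, 173 and 120 CPM in Perk-null libraries (-0.88), falls that differed by 1.09 (SE 0.35, edgeR adjusted p = 0.0141). Library number 3 held the lowest Prdx1 in 12 of 12 groups, so part of its spread within groups followed the library number. The WT fall with BtdCPU (174, 290 and 161 CPM; -0.69, edgeR adjusted p = 0.0402) was lost without BtdCPU library 1 or 3 or DMSO library 1 or 2 (edgeR adjusted p from 0.114 to 0.217) and in a fit of the 2 groups alone (edgeR adjusted p = 0.115).

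G6pdx encodes glucose-6-phosphate dehydrogenase, the entry enzyme of the pentose phosphate pathway and a main source of NADPH. In DMSO the genotypes were alike in level, with 132, 118 and 123 CPM in WT and 129, 128 and 129 CPM in Perk-null libraries (log2 difference 0.05, edgeR adjusted p = 0.818). Halofuginone lowered it to 26.1, 22.6 and 20.3 CPM in WT (-2.44, SE 0.16, edgeR adjusted p = 1.93e-14) and to 60.7, 68.5 and 49.5 CPM in Perk-null libraries (-1.11, SE 0.15, edgeR adjusted p = 4.33e-07). The WT fall was the larger, by 1.32 (SE 0.21, edgeR adjusted p = 1.72e-05). Over Tg, halofuginone lowered it to 34.5, 36.8 and 22.2 CPM in WT (-1.54) and to 53.9, 56.9 and 47.9 CPM in Perk-null libraries (-1.53), responses that differed by 0.01 (SE 0.21, edgeR adjusted p = 0.991).

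Tg alone lowered G6pdx in WT cells to 96.2, 81.2 and 94.5 CPM (-0.46, edgeR adjusted p = 0.0118), whereas Perk-null libraries held 149, 148 and 162 CPM, all above DMSO, a value of 0.25 (edgeR adjusted p = 0.23) that passed in a fit of the 2 groups alone (0.21, edgeR adjusted p = 0.037). The responses differed by 0.71 (SE 0.21, edgeR adjusted p = 0.00787). BtdCPU over Tg lowered Perk-null G6pdx to 93.2, 99.9 and 92.7 CPM (-0.68, edgeR adjusted p = 0.000532). In WT cells it gave 78.8, 66.8 and 49.7 CPM, all below the Tg libraries, a value of -0.48 that did not pass (edgeR adjusted p = 0.0827) but did without the filter (edgeR adjusted p = 0.00447), under DESeq2 (adjusted p = 0.0266) and without WT BtdCPU with Tg library 1 (edgeR adjusted p = 0.0316). It also passed with the replicate number as a block (-0.50, edgeR adjusted p = 0.00473), where 2 of 10 genes and 2079 of all genes were called in place of 1 and 372. G6pdx overlaps Ikbkg on the opposite strand, so its count can include reads of that gene.

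Me1, the cytosolic malic enzyme and another source of NADPH, varied least, with group means from 39.4 to 60 CPM. Its highest group was Perk-null with Tg, at 56.7, 56.2 and 67.1 CPM, above the 41.5, 41.8 and 45.3 CPM of DMSO (0.48, SE 0.13, edgeR adjusted p = 0.00641), but the rise did not pass without Tg library 3 (0.35, edgeR adjusted p = 0.0949). WT libraries held 43.8, 46.7 and 56.1 CPM in DMSO and 43.2, 45.2 and 53.1 CPM with Tg. The difference of 0.54 (edgeR adjusted p = 0.0252) was lost without WT Tg library 1 or 2, WT DMSO library 3, Perk-null Tg library 3 or Perk-null DMSO library 1 (edgeR adjusted p from 0.0527 to 0.0898). Halofuginone over Tg returned Perk-null Me1 to 40.7, 45 and 52.2 CPM (-0.39, edgeR adjusted p = 0.0161), lost without halofuginone with Tg library 1 or 2 or Tg library 3 (edgeR adjusted p from 0.0701 to 0.145). Its difference from the WT value, -0.49 (edgeR adjusted p = 0.0467), was lost under DESeq2, with DESeq2 size factors, without the filter, in a fit of the 4 groups alone and without any 1 of 7 libraries, WT halofuginone with Tg 3, WT Tg 1 and 2, Perk-null halofuginone with Tg 1 and 2, and Perk-null Tg 2 and 3 (adjusted p from 0.0552 to 0.199, edgeR or DESeq2). Library number 3 held the highest Me1 in 12 of 12 groups, so leaving it out of 1 group alone also unbalances the library number. The Perk-null rise with Tg kept its call with the replicate number as a block. Me1 overlaps A330041J22Rik on the opposite strand.

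Osgin1, an oxidative stress-induced growth inhibitor, had the lowest counts of the 10 genes, between 5.86 and 16 CPM in group means. Tg gave 13.9, 14.8 and 14.2 CPM in WT libraries, above 9.26, 11.2 and 10.8 CPM in DMSO (0.45, SE 0.14, edgeR adjusted p = 0.00723). The rise did not pass without WT DMSO library 1 (0.37, edgeR adjusted p = 0.0526) or without the filter on low counts (0.42, edgeR adjusted p = 0.0584). In Perk-null libraries Tg gave 17, 14.8 and 16.3 CPM beside 14.2, 13 and 11 CPM (0.33, edgeR adjusted p = 0.0667). This value passed with the replicate number as a block (0.34, edgeR adjusted p = 0.0378).

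The addition of BtdCPU to Tg separated the genotypes for Osgin1. WT libraries kept 13.1, 14.5 and 13.7 CPM (-0.05, edgeR adjusted p = 0.893), while Perk-null libraries fell to 7.84, 9.31 and 7.24 CPM (-0.98, SE 0.14, edgeR adjusted p = 1.49e-06). The difference was -0.93 (SE 0.19, edgeR adjusted p = 0.000729). Halofuginone over Tg lowered Osgin1 in both, to 7.79, 7.59 and 7.54 CPM in WT (-0.90) and 5.4, 5.86 and 6.31 CPM in Perk-null libraries (-1.45). That difference, -0.55 (edgeR adjusted p = 0.0309), was lost without the filter (-0.47, edgeR adjusted p = 0.216) and without any 1 of 7 libraries, WT halofuginone with Tg 1, WT Tg 1 and 2, Perk-null halofuginone with Tg 1 and 2, and Perk-null Tg 1 and 3 (edgeR adjusted p from 0.0547 to 0.124).

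**Figure D3:**
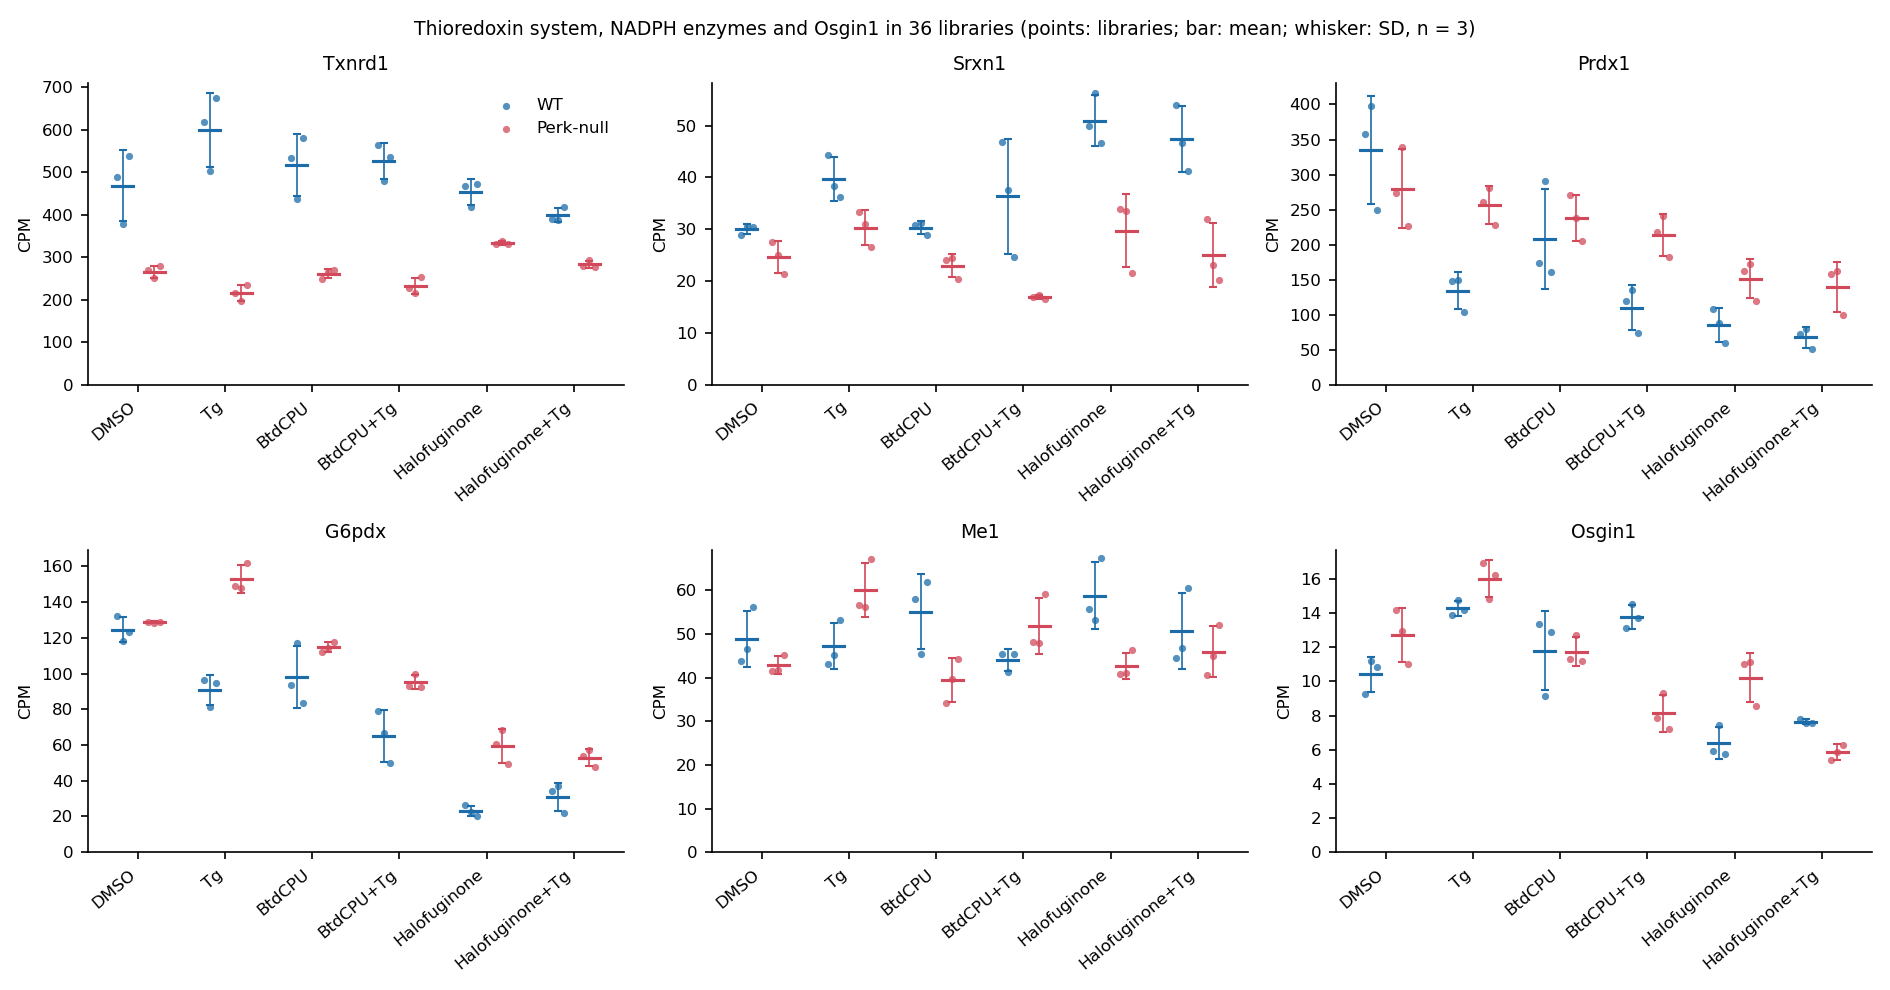
CPM (vertical axes, from 0) of Txnrd1, Srxn1, Prdx1, G6pdx, Me1 and Osgin1 by treatment in WT (blue) and Perk-null (red) cells; points are libraries, bars means and whiskers SD of 3. G6pdx lies from 20.3 to 26.1 CPM in WT cells with halofuginone, against 118 to 132 CPM in DMSO, and Txnrd1 of the 2 genotypes never overlaps.

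**Figure D4:**
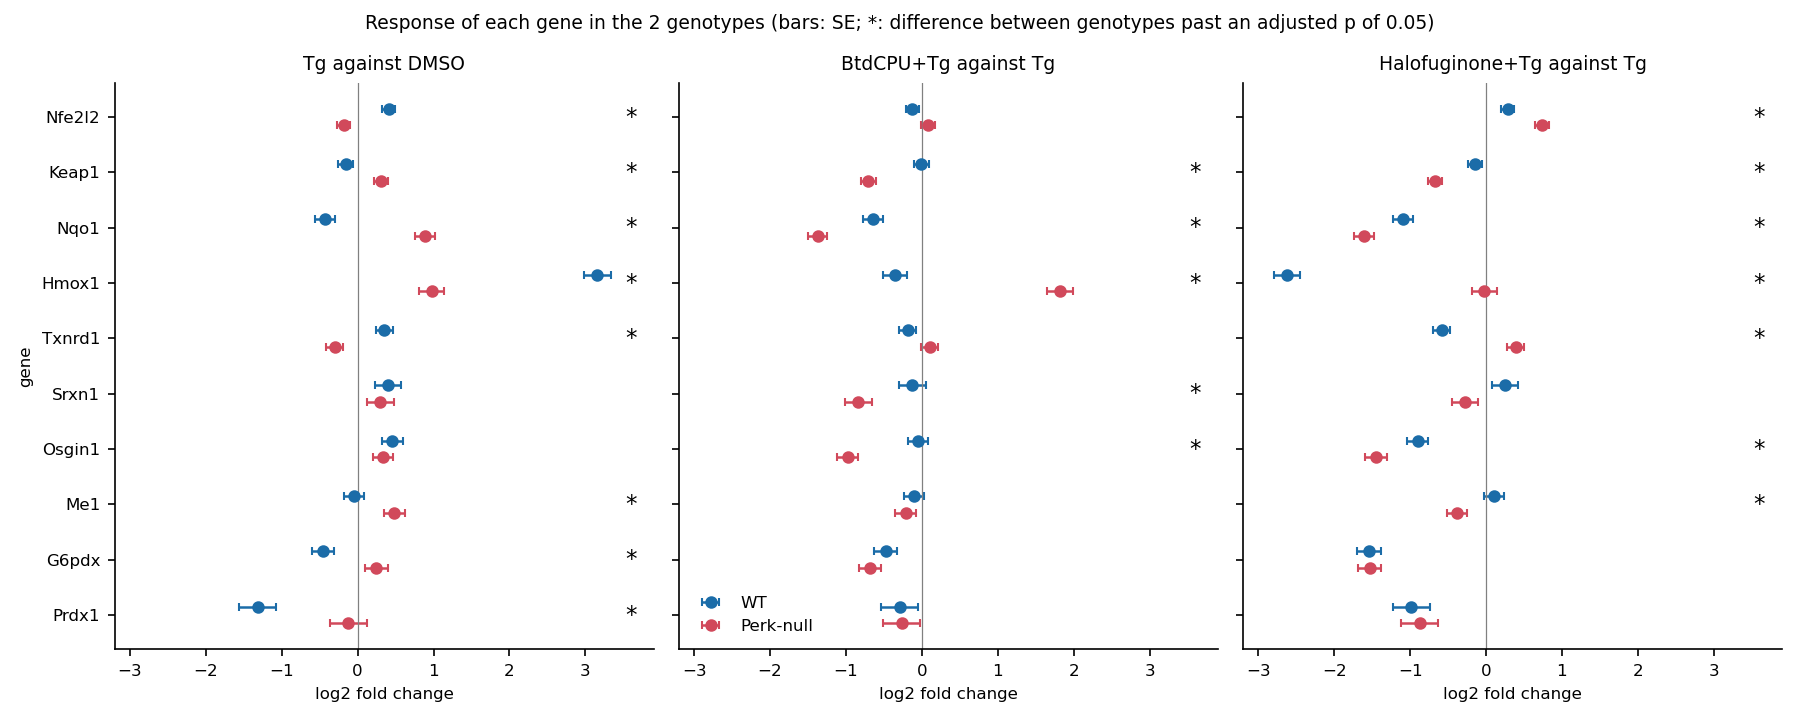
Log2 fold change (horizontal axes; bars SE) of the 10 genes in WT (blue) and Perk-null (red) cells for Tg against DMSO, BtdCPU with Tg against Tg and halofuginone with Tg against Tg; an asterisk marks a difference between genotypes with an edgeR adjusted p below 0.05. Hmox1 is farthest apart in all 3 panels, by -2.18, 2.17 and 2.60.

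The 10 genes did not share 1 pattern over the 12 group means of log2 CPM. Nfe2l2 ran closest to Txnrd1 (Pearson r = 0.90, with the genotype gap in both) and Srxn1 (0.85) and opposite to Prdx1 (-0.72) and G6pdx (-0.67). G6pdx ran with Prdx1 (0.91) and Nqo1 with Keap1 (0.87), while Hmox1 lay between -0.25 and 0.30 with the other 9. These values are descriptions over 12 points that share 2 genotypes and 1 fit. Of 10227 tested genes with a mean log2 CPM of at least 2, those most like Nfe2l2 were Ywhag (r = 0.986), Fez2 (0.984) and Cdkn1a (0.983). For Hmox1 they were Usp30 (0.914), Inpp5b (0.909) and Cnppd1 (0.909), and for Txnrd1 Crcp (0.975), Cmtm7 (0.973) and Dnajc15 (0.972). Nqo1 was most like Gm1673 (0.963), Cacnb3 (0.955) and Aspn (0.950), and Osgin1 most like Ripk3 (0.891), 9530082P21Rik (0.852) and Ksr1 (0.851).

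The wider NRF2 programme was read from 28 tested genes of a list of 29 other known targets (Gpx2 was not tested). Tg raised 7 and lowered 10 of them in WT cells (60.7% called, all genes 47.6%) and raised 9 and lowered 2 in Perk-null cells (39.3%, all genes 27.9%). Halofuginone lowered 22 and raised 5 in WT cells (96.4% called, all genes 68.2%), with a median log2 change of -1.02 against 0.00 over all genes. In Perk-null cells it lowered 16 and raised 4 (71.4%, all genes 42.2%), with a median of -0.43 against 0.00. Over Tg it lowered 20 and raised 2 in WT cells (78.6%, all genes 45.3%; median -1.05) and lowered 21 and raised 4 in Perk-null cells (89.3%, all genes 52.7%; median -0.76). BtdCPU alone raised 6 and lowered 3 in WT cells (32.1%, all genes 22.2%) and raised 2 and lowered 1 in Perk-null cells (10.7%, all genes 3.59%). Over Tg it lowered 1 of 28 in WT cells (3.57%, near the 2.32% of all genes) and raised 5 and lowered 11 in Perk-null cells (57.1%, all genes 35.6%). Between genotypes in DMSO, 5 were higher and 13 lower in Perk-null cells (64.3%, all genes 49.5%; median -0.29 against 0.02).

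Slc7a11, the cystine transporter, also known as an ATF4 target, was the strongest riser of that list in 7 of the 10 treatment comparisons. It rose from 2.44 ± 1.4 CPM in WT cells in DMSO to 48.5 ± 5.4 with Tg (4.31), 30.7 ± 10 with BtdCPU (3.65) and 42.3 ± 12 with halofuginone (4.11; SD, n = 3, log2 changes in parentheses). In Perk-null cells it went from 3.43 ± 0.59 to 6.51 ± 1.7 CPM with Tg, 15.9 ± 1.7 with BtdCPU and 46.1 ± 1.4 with halofuginone, and its Tg response differed from the WT one by -3.38 (SE 0.38, edgeR adjusted p = 2.32e-08). Over Tg it rose in Perk-null cells by 2.17 with BtdCPU and 2.83 with halofuginone. Slc7a11 thus rose with halofuginone in both genotypes, where Nqo1, G6pdx and Prdx1 fell. Gsta4, a glutathione transferase, rose by 1.40 with Tg in Perk-null cells. Htatip2 rose by 0.79 with halofuginone over Tg in WT cells. Gclm, a subunit of the enzyme that starts glutathione synthesis, was higher in Perk-null cells in DMSO (57.9 ± 5.9 against 26.7 ± 0.99 CPM, log2 difference 1.12). The strongest called falls were Mgst1 (-2.34) with Tg, Idh1 (-0.99) with BtdCPU, Cbr1 (-3.40) with halofuginone, Pgd (-0.48) with BtdCPU over Tg and Gsta4 (-2.20) with halofuginone over Tg in WT cells. In Perk-null cells they were Akr1b8 (-0.45) with Tg, Pgd (-0.34) with BtdCPU, Idh1 (-1.83) with halofuginone and Idh1 (-1.50) with BtdCPU over Tg. Aldh3a1, strongest there with halofuginone over Tg, rests on 0 to 2 counts per library against 8 to 17 with Tg, and Mgst1, lowest in Perk-null cells in DMSO, on 0 to 2 counts per library there (6.43 ± 3.6 CPM in WT), so no fold is given.

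Of 10 regulators and partners of NRF2, halofuginone changed all 10 in WT cells (8 up, 2 down; all genes 68.2%) and 8 of 10 in Perk-null cells (7 up, 1 down; all genes 42.2%). Bach2, a BACH1-related repressor, rose most, from 1.55 ± 0.28 to 14.9 ± 5.2 CPM in WT (3.26) and from 2.34 ± 0.12 to 8.40 ± 2.2 CPM in Perk-null cells (1.84). Over Tg, halofuginone raised 6 and lowered 1 of the 10 in WT (all genes 45.3%) and raised 7 and lowered 2 in Perk-null cells (all genes 52.7%), with Maff, a small MAF partner, first in both (2.53 and 2.79). Tg alone raised 5 and lowered 1 in WT (all genes 47.6%) and raised 3 and lowered 2 in Perk-null cells (all genes 27.9%), led by Nfe2l1, the NRF2 relative NRF1 (1.62 and 0.61), and in Perk-null cells Maff fell most (-1.82). BtdCPU alone raised 5 in WT (all genes 22.2%) and 2 in Perk-null cells (all genes 3.59%), again led by Nfe2l1 (1.01 and 0.64). Over Tg it raised Maff alone in WT cells (0.86; all genes 2.32%) and raised 5 and lowered 1 in Perk-null cells (all genes 35.6%), led by Mafk (1.00) and with Btrc lowest (-0.38). Rbx1, the RING subunit of the CUL3 ligase, was the strongest fall with Tg (-0.78) and halofuginone (-0.91 alone, -0.39 over Tg) in WT and with halofuginone (-0.48 alone, -0.72 over Tg) in Perk-null cells. Cul3 itself did not fall in these WT comparisons. It averaged 174 ± 19 CPM in DMSO, 260 ± 34 with Tg and 440 ± 50 with halofuginone in WT cells (SD, n = 3). In Perk-null cells it averaged 182 ± 12 CPM in DMSO, 156 ± 6.9 with Tg and 276 ± 53 with halofuginone.

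Bach1, the repressor of Hmox1, was lower in Perk-null than in WT cells in DMSO (19.5 ± 0.85 against 31.7 ± 2.6 CPM, log2 difference -0.71, edgeR adjusted p = 0.00125), where 2 of the 10 regulators were lower and 1, Btrc (0.60), higher (30% called, all genes 49.5%). With halofuginone it rose to 78.5 ± 18 CPM in WT (1.31, edgeR adjusted p = 9.45e-08) and stood at 23.8 ± 3.6 CPM in Perk-null cells (0.29, edgeR adjusted p = 0.19), a difference of -1.02 (SE 0.25, edgeR adjusted p = 0.00181). Over Tg the halofuginone response of Bach1 differed by -1.41 (SE 0.25, edgeR adjusted p = 4.05e-05), where that of Hmox1 differed by 2.60. Whether Bach1 has a part in the Hmox1 values was not tested.

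Of 18 other antioxidant enzymes, 17 were tested (Gpx3 was not). Halofuginone lowered 12 and raised 2 in WT cells (82.4% called, all genes 68.2%), with Prdx2 falling most (-2.55). In Perk-null cells it lowered 7 and raised none (41.2%, near the 42.2% of all genes), with Glrx falling most (-1.50). Over Tg it lowered 10 and raised 1 (Gpx8, 1.60) in WT (64.7%, all genes 45.3%) and lowered 10 and raised none in Perk-null cells (58.8%, all genes 52.7%). Tg lowered 6 and raised 1 in WT cells (41.2%, below the 47.6% of all genes), where Gpx8, a peroxidase of the ER, fell by 2.67 on the log2 scale and Msra rose by 0.42. In Perk-null cells Tg raised 2, Cat (0.57) the more, and lowered none (11.8%, below the 27.9% of all genes).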

How the data were processed

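RNA was measured in 36 libraries, 3 in each of 12 groups set by the genotype and treatment in the labels. Per the labels, RNA came from a Zymo kit and libraries were strand-specific DNBSEQ ones. The submitters' processing notes name the build GRCm39 and the tool DESeq, with no role given, and the aligner, counter, annotation and use of strand are not given in the sources used here. The authors deposited estimated counts by gene symbol without scaling, in which 0.025 stands in for 0. From it, 27 entries named by a number (0.206% to 0.278% of a library's counts) were left out, 39 symbols on 86 entries were summed, leaving 36856 symbols, and values were rounded to whole numbers. No library repeated another (chi-square of at least 9.14 per degree of freedom between libraries of a group).

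edgeR 4.0.16 in R 4.3.3 was run with filterByExpr by group (16065 genes), TMM scaling and a robust quasi-likelihood fit of 12 group means (common dispersion 0.0199, 24 residual degrees of freedom). The 16 contrasts comprised 11 between 2 groups and 5 between genotypes in a response, with p-values adjusted over all tested genes. SE is the log2 change divided by the square root of F, and CPM uses the TMM library sizes. With library sizes alone the median of all genes moved by over 0.1 on the log2 scale in 2 contrasts, from 0.004 to -0.11 for halofuginone in WT and from 0.001 to 0.105 for the genotype difference with halofuginone. The fit was tested on simulated data with 15502 genes, 200 of them changed, for Tg in WT cells. It recovered 66% of the 2-fold and 31% of the 1.5-fold changes, and 4.9% of its calls were false. A gene that was not called is thus not shown to be unchanged. Alternatives were DESeq2 (1.42.0), other scaling, no filter, only the groups compared, the replicate number as a block and each library left out.

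Libraries of the same number deviated together, with every correlation over 0.1, for BtdCPU over Tg (0.16, 0.31 and 0.34) and halofuginone over Tg (0.16, 0.2 and 0.31) in WT cells only, and the labels do not say what the numbers share. The 10 genes, the other lists and the motifs were chosen with earlier results of these data known. Of the other lists, the text names the strongest called rise and fall in each treatment comparison, and Slc7a11, Gclm, Bach1 and Cul3 were followed further after their values were seen. Likeness is the Pearson correlation over the 12 group means. Neighbouring genes come from GENCODE M21 exons and promoter windows from RefSeq, both on GRCm38, so their coordinates are not on the build named by the submitters.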

Additional observations from a re-analysis of the deposited data

Results flagged for a closer look

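A response that differed between the genotypes past an adjusted p of 0.05 (edgeR, interaction term) set apart 23 values, given here as the Perk-null log2 change minus the WT one. For Tg against DMSO they were -2.18 for Hmox1, -0.65 for Txnrd1, -0.59 for Nfe2l2, 0.47 for Keap1, 0.54 for Me1, 0.71 for G6pdx, 1.19 for Prdx1 and 1.32 for Nqo1. For halofuginone against DMSO they were 0.91 for Nqo1, 1.09 for Prdx1 and 1.32 for G6pdx. For BtdCPU added to Tg they were 2.17 for Hmox1, -0.70 for Keap1, -0.71 for Srxn1, -0.73 for Nqo1 and -0.93 for Osgin1. For halofuginone added to Tg they were 2.60 for Hmox1, 0.97 for Txnrd1, 0.45 for Nfe2l2, -0.49 for Me1, -0.51 for Nqo1, -0.53 for Keap1 and -0.55 for Osgin1. The sign of the Hmox1 difference for Tg was opposite to that for either compound added to Tg, and these comparisons share the Tg libraries.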

How the results depend on the processing

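Of 160 values (10 genes in 16 contrasts), 80 were called. Of these, 62 kept the call under every alternative, 18 lost it under at least 1, and none changed sign. Of the 80 values not called, 28 were called under at least 1. The number of the 10 genes called moved as follows. For BtdCPU in WT cells it was 3, 5 with the replicate block, 1 with only the compared groups and 1 to 4 without single libraries (1 without WT BtdCPU 1 or 3). For BtdCPU over Tg in WT cells it was 1, 2 with no filter, the replicate block or DESeq2, 0 with only the compared groups, and 0 (without BtdCPU with Tg 3) to 2 (without 1) when a library was left out. For Tg in Perk-null cells it was 5, 6 with the replicate block or DESeq2, 7 with only the compared groups, 4 with no filter and 3 (without Tg 2 or 3 or DMSO 1 or 3) to 5 when a library was left out. For BtdCPU in Perk-null cells it was 2, 1 with library sizes alone or no filter, 3 with the replicate block or only the compared groups, and 1 to 2 without single libraries (2 only without BtdCPU 2). The genotype difference was called for 0 genes with BtdCPU and for 0 to 1 without single libraries (1 without WT BtdCPU 2). With halofuginone it was called for 3, for 5 with library sizes alone or no filter, for 7 with the replicate block and for 3 to 5 without single libraries (5 without Perk-null halofuginone 3). With halofuginone over Tg it was called for 7, for 3 with no filter and for 4 to 7 without single libraries (4 without WT Tg 2 or Perk-null Tg 3). The replicate block also called Srxn1 for Tg in WT cells (0.39, edgeR adjusted p = 0.0072) and its genotype differences with halofuginone (-0.50, edgeR adjusted p = 0.0188) and halofuginone over Tg (-0.54, edgeR adjusted p = 0.012). Srxn1 for Tg in WT cells was called with no filter and with only the compared groups as well. With the block Me1 was called for halofuginone in WT cells too (0.27, edgeR adjusted p = 0.00332, against 0.0775 without it). The cause of these shifts was not tested.

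Over all genes, BtdCPU in WT cells gave 3571 calls, 5534 with the replicate block, 835 with only the compared groups and 1780 to 5062 without single libraries. BtdCPU over Tg in WT cells gave 372, 2079 with the replicate block, 813 with no filter, 899 under DESeq2, 23 with only the compared groups and 41 to 331 without single libraries. BtdCPU in Perk-null cells gave 577, 1577 with the replicate block, 881 under DESeq2, 1265 with only the compared groups and 326 to 405 without single libraries. The genotype difference with BtdCPU gave 32, 587 with the replicate block, 314 with no filter, 161 under DESeq2, 2 with only the compared groups and 14 to 845 without single libraries. With library sizes alone, the share of calls that were higher went from 58.1% to 45.1% for BtdCPU in WT cells, from 55.9% to 80.7% for BtdCPU over Tg in WT cells and from 51.6% to 41.4% for the genotype difference with BtdCPU over Tg. In the other comparisons not every correlation between libraries of the same number was over 0.1. They ran from -0.01 to 0.29 and most were above 0, as for Tg in WT cells (0.04, 0.2 and 0.28). By that rule pairing of the samples was not shown there over all genes, nor was it excluded, and the replicate block there is a hint only. The block gave more calls over all genes than the main fit in every contrast. Single genes did follow the library number in both genotypes. Library number 3 was lowest for Prdx1 and highest for Me1 in 12 of 12 groups, and lowest for Srxn1 in 11 of 12. For these genes the spread in the fit without the block includes that of the library number.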
